A study of Rattus norvegicus with 12 samples.

Results

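Glycolysis and hypoxia-response genes were followed in NRK-52E cells, a rat line of renal tubular epithelial cells, by RNA sequencing. The set holds 38 genes chosen by name, namely glycolytic enzymes, subunits of the hypoxia-inducible factor (HIF), and known HIF targets, without transporters and without collagen-modifying hydroxylases. All 38 were found among the 24660 rows of the count table, 36 by their symbol and Car9 and Car12 under the older symbols Ca9 and Ca12. The 12 libraries fell into 4 groups of 3, all from the same wild-type line grown in serum-containing medium. 3D-EV cells received TGF-beta1, given in the labels as 10 µg/ml for 24 h (the unit may be a slip, since far lower doses are usual), and then 500000000 particles/ml of extracellular vesicles (EVs) for 48 h, made by a method labelled 3D. 2D-EV cells received the same with EVs of a conventional method labelled 2D, TGF-beta1 cells received TGF-beta1 alone, and no agent is named for control cells. The labels name no low-oxygen condition in any group. The sources used here do not give the cells that made the EVs, the harvest times of control and TGF-beta1 cells or whether TGF-beta1 stayed in the medium, so EVs, time and removal of TGF-beta1 cannot be told apart. Libraries held 32888125 to 39754319 counts. Levels are CPM (each library scaled to a common total with TMM factors). A p-value here reflects just the spread of 3 libraries per group, estimated jointly over all 4 groups, and that spread may be technical.

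The epithelial label was checked against marker genes. Krt8, a keratin of simple epithelia, averaged 1159 ± 21.9, 1178 ± 19.1, 1216 ± 41.6 and 1013 ± 6.96 CPM in 3D-EV, 2D-EV, TGF-beta1 and control cells (SD, n = 3 each), and Ggt1, a brush border enzyme, 314, 304, 305 and 165 CPM. Aqp1 went the other way, with 16.16, 16.11, 14.96 and 19.79 CPM in the same order and 447 to 841 counts per library. Of 9 tested markers among the 15 on this list, 3 rose and 1 fell in TGF-beta1 against control cells. In that comparison 22.0% of all tested genes passed (11.8% upward, 10.2% downward). Other defining markers were absent or close to it, with 0 counts in every library for Epcam and Pax2. Krt18 held 0 to 5, Pax8 0 to 8 and Cdh1 2 to 30. The proximal markers Slc34a1, Lrp2 and Cubn held 0 to 3, 17 to 59 and 17 to 43. Fibroblast and pericyte markers went against the label in part. Mfap5, a protein of matrix microfibrils, averaged 576 ± 19.6, 544 ± 9.45, 552 ± 3.61 and 551 ± 19.4 CPM in 3D-EV, 2D-EV, TGF-beta1 and control cells, and Pdgfrb, a receptor of pericytes, 23.2, 21.4, 21.3 and 18.8 CPM. The collagen Col14a1 fell (129.8 CPM in TGF-beta1 cells and 199 CPM in control cells) and the matrix protein Postn rose (65.0 CPM in TGF-beta1 cells and 41.3 CPM in control cells), the 2 calls among 5 tested markers of the 9 on this list. Of the others, Pdgfra held 0 to 10 counts, Dcn 0 to 2, Lum 0 to 6 and Rgs5 0 to 14. The list summed to 789 to 833, 767 to 784, 762 to 787 and 782 to 835 CPM in 3D-EV, 2D-EV, TGF-beta1 and control libraries, and its part in the results was not tested. The immune markers Ptprc, C1qa, C1qb, Itgam and Tyrobp, 5 of 9 on their list, held 0 counts in every library. The summed immune list was nevertheless higher in TGF-beta1 cells (247 to 254 CPM) than in control cells (181 to 197 CPM), almost all of it from Cd14, at 248 and 185 CPM.

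Glycolysis splits glucose into pyruvate in the cytosol, and most of its enzymes exist as several isoenzymes encoded by separate genes. HIF is a pair of an oxygen-regulated alpha subunit and the stable partner Arnt. Prolyl hydroxylases mark the alpha subunit for destruction when oxygen is present, so HIF is regulated largely at the protein level, and its own transcript need not follow its activity. Its targets include many glycolytic enzymes, the angiogenic factor Vegfa and genes for mitophagy and pH control. Tubular cells of the proximal nephron rely mainly on fatty acid oxidation, and a turn towards glycolysis has been described in injured and fibrotic kidneys.

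HIF binds a core of 5 letters, ACGTG or GCGTG, and promoter windows of the members were searched for it on both strands. The windows, from RefSeq on build GRCr8, run from 250 bases before to 50 bases after an annotated start. They covered 35 of the 38 members. Pgk1, Bnip3l and Ndrg1 were not matched. At least 1 core stood in the windows of 26 of these 35 genes (74.3%), beside 44.6% of all 27457 genes of the table. Windows of members were richer in G and C (median 63.0% against 51.7% for all windows), and the core is more frequent in such windows. Among windows of at least 60 and under 70% G and C, 12 of 16 windows of members and 67.6% of all held it. The core overlaps the E-box CACGTG, which stood in 5 of 41 windows of members and 6.42% of all. The 250 bases before the start are shown for the 4 called members with the widest fold change in any comparison (all at a mean of at least 1 CPM). Of these, Ankrd37 was called in 3D-EV against control cells only, and that call was lost in 10 of 18 alternative runs. Capitals mark the whole cores found.
Pfkp: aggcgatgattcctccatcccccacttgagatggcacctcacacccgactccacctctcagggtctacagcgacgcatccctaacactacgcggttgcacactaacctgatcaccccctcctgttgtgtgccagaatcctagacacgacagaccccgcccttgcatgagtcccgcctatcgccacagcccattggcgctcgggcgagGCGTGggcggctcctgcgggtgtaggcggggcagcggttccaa
Pfkfb4: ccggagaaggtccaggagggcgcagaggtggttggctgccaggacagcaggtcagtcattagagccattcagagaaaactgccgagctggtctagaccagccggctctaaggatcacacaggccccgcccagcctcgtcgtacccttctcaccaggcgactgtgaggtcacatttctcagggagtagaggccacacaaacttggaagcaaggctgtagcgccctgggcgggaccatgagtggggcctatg
Ankrd37: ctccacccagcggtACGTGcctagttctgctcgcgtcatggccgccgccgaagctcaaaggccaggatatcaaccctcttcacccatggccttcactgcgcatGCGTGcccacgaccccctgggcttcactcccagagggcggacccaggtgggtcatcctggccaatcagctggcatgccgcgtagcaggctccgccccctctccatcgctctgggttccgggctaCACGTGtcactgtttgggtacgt
Eno2: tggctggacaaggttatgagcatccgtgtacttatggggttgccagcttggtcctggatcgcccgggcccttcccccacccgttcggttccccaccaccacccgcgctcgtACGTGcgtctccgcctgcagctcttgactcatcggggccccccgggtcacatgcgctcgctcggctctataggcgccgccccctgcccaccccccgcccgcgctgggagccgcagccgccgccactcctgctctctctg
They lie at chr17:68639563-68639812 on the plus strand (Pfkp), chr8:118525916-118526165 on the plus strand (Pfkfb4), chr16:53001257-53001506 on the plus strand (Ankrd37) and chr4:159267221-159267470 on the minus strand (Eno2). Ankrd37 held 4 cores in the stretch, of which a pair overlaps as CACGTG, while Eno2 and Pfkp held 1 each and Pfkfb4 held 0. The windows of Vegfa held none. A match is a description of letters and no evidence of binding.

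The members differed widely in whether they were measured at all. Of the 38 genes, 35 passed the filter on low counts and were tested. Egln3, a HIF prolyl hydroxylase that is itself a HIF target, held 0 counts in every library, which allows up to 0.0755 to 0.0912 CPM (3 counts per library, counting error only). Epas1, the alpha subunit also called HIF-2 alpha, held 0 to 8 counts, and Adm, which encodes the vasodilator peptide adrenomedullin, 0 to 2. Among the tested members Ndrg1, a stress-induced gene, held 4 to 22 counts and Car12, a membrane carbonic anhydrase, 6 to 49. Ankrd37, an ankyrin-repeat protein, held 68 to 122, and each of the others held at least 160 in every library. Car9, the cell-surface carbonic anhydrase that is widely used as a marker of hypoxia, stood at 1019 to 1126 CPM in all 12 libraries, untreated cells included. The 17 enzymes from hexokinase to pyruvate kinase and lactate dehydrogenase together took 0.940, 0.958 and 0.902% of the counts of the 3D-EV libraries, 0.914, 0.962 and 1.01% in 2D-EV cells, 0.943, 0.928 and 0.943% in TGF-beta1 cells and 0.900, 0.895 and 0.849% in control cells. All libraries given TGF-beta1 lay above the highest control library on this sum, the closest by a thin margin (0.902% in 3D-EV replicate 3 against 0.900% in control replicate 1). Without Pkm the groups overlapped on this share, with 0.726% in TGF-beta1 replicate 2, just below the 0.727% of control replicate 2. These shares are of raw library totals, without the TMM factors that enter CPM. The factors were higher in control libraries (1.023 to 1.030) than in all others (0.983 to 1.001). Libraries this close can therefore be ordered differently on CPM, and the overlap holds for raw shares only.

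TGF-beta1 cells against control cells. The question was which of these genes the profibrotic cytokine changed. In bulk libraries a change in the share of cells and a change of RNA per cell cannot be told apart. In TGF-beta1 cells 4 transcripts of the later steps of glycolysis were higher, both enolases, the mutase Pgam1 and the pyruvate kinase Pkm. The hexokinase Hk2, the phosphofructokinase subunit Pfkp, the regulator Pfkfb4 and the HIF target Vegfa were also higher, while Ddit4, Pfkm and Pfkfb3 were lower. Lactate dehydrogenase, the HIF subunits and Car9 did not pass the test. Of 35 tested members, 8 rose, 3 fell and 24 did not pass (edgeR quasi-likelihood test, adjusted p below 0.05), where 22.0% of all 14184 tested genes passed, 11.8% upward and 10.2% downward. The median log2 fold change was 0.03 over the members and -0.005 over all tested genes, and the median absolute value was 0.11 and 0.13. The libraries of the groups did not overlap for 17 of 35 members, beside 38.0% of all tested genes.

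In the later part of the pathway all 9 members from aldolase to pyruvate kinase had a positive log2 fold change (median 0.15, range 0.05 to 0.43). Only 4 of them rose. Over all 35 tested members 20 values were positive and 15 negative. The 9 genes were measured in the same libraries, so their signs are not independent. Eno2, the enolase best known from neurons, held 188, 198 and 198 CPM in TGF-beta1 cells, against 148, 143 and 143 CPM in control cells. Every TGF-beta1 library lay above every control library, and the rise was 1.35-fold (log2 fold change 0.43, SE 0.05, adjusted p = 3.23e-05). Eno1, the ubiquitous enolase, held 1596, 1535 and 1522 CPM in TGF-beta1 cells, against 1357, 1404 and 1316 CPM in control cells (log2 fold change 0.19, SE 0.03, adjusted p = 0.000911), again without overlap. Pgam1, phosphoglycerate mutase, held 827, 809 and 787 CPM in TGF-beta1 cells, against 678, 724 and 671 CPM in control cells (log2 fold change 0.23, SE 0.03, adjusted p = 0.000261), and its groups did not overlap either. Pkm, pyruvate kinase, held 1919.5, 2035 and 2175 CPM in TGF-beta1 cells, against 1826, 1629.6 and 1556 CPM in control cells (log2 fold change 0.29, SE 0.09, adjusted p = 0.0282). Its libraries did not overlap but spread widely, and the gene count joins the alternatively spliced forms of the enzyme. The call for Pkm was lost without control replicate 2 (adjusted p = 0.0843) or 3 (0.112), without TGF-beta1 replicate 2 (0.069) or 3 (0.107), and by DESeq2 (0.0501).

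The other 5 members of this stretch did not pass. They were the aldolases Aldoa (867 ± 73.1 CPM in TGF-beta1 cells and 788 ± 20.3 CPM in control cells, log2 fold change 0.14, adjusted p = 0.0853) and Aldoc (log2 fold change 0.15, adjusted p = 0.36), the isomerase Tpi1 (log2 fold change 0.10, adjusted p = 0.0851), the dehydrogenase Gapdh (log2 fold change 0.07, adjusted p = 0.214) and the kinase Pgk1 (log2 fold change 0.05, adjusted p = 0.347). Aldoa passed by DESeq2 (adjusted p = 0.0299) and without TGF-beta1 replicate 2 (0.0266), and Tpi1 by DESeq2 (0.0477) and without control replicate 2 (0.0168). Gapdh, a common reference gene, held 1348, 1317 and 1339 CPM in TGF-beta1 cells, against 1300.0, 1299 and 1221 CPM in control cells. These do not overlap after TMM scaling, although the fold change was only 1.05. The TMM factors themselves differed between the groups (0.989 to 0.992 in TGF-beta1 and 1.023 to 1.030 in control libraries), so the separation depends on the scaling. Genes such as Gapdh have near-identical pseudogenes whose reads the counting could share, and Tpi1 overlaps Spsb2, so small differences in them are uncertain.

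**Figure D1:**
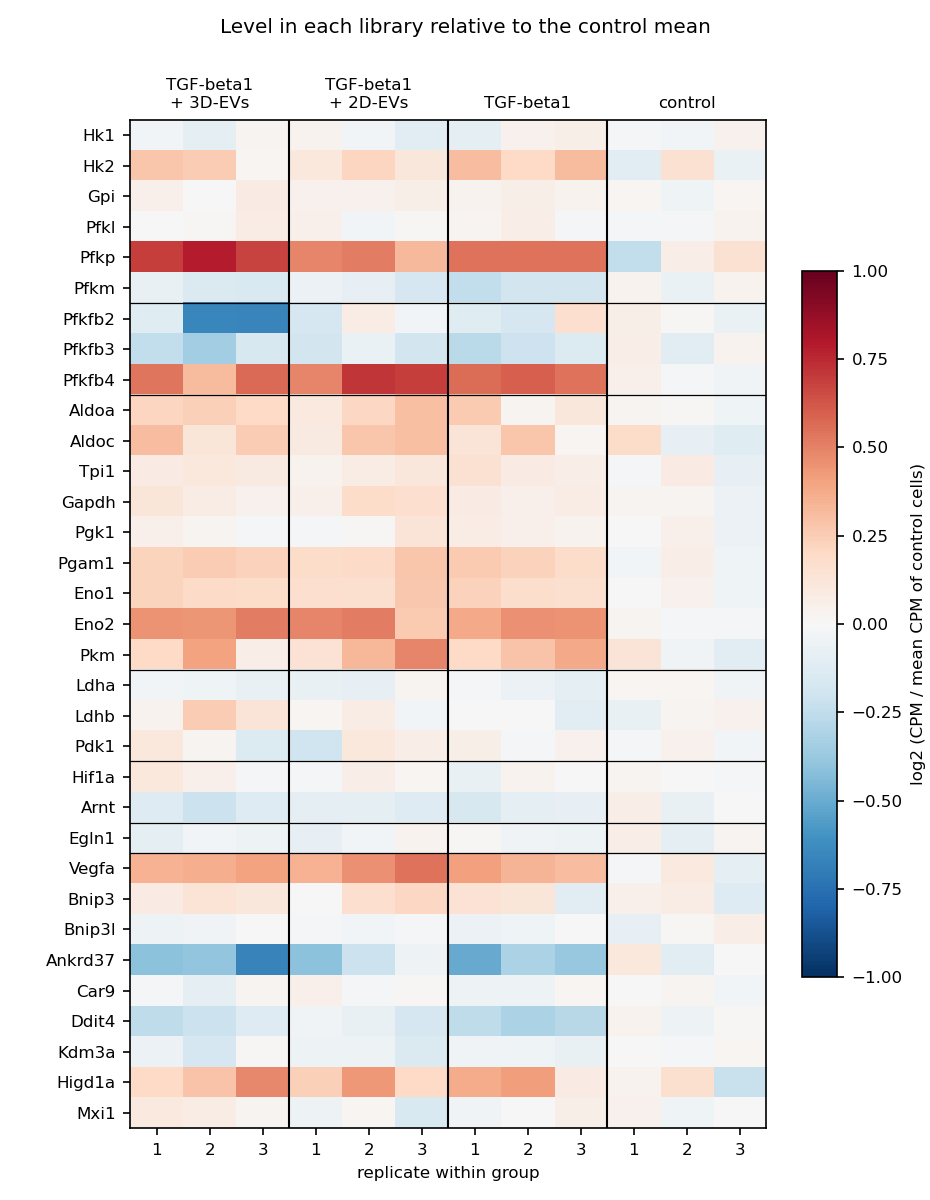
Level of 33 members in each of the 12 libraries as log2 of the CPM over the mean CPM of control cells (colour scale from -1 to 1; Ndrg1, Car12 and the 3 untested members are left out). Rows follow the pathway, with lines between the roles, and Pfkp, Pfkfb4, Eno2 and Vegfa are red in all 9 libraries given TGF-beta1.

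Among the enzymes of the first steps, isoenzymes of the same reaction differed. Pfkp, the platelet-type phosphofructokinase subunit, held 8.91, 8.91 and 8.88 CPM in TGF-beta1 cells, against 5.15, 6.39 and 6.78 CPM in control cells, a 1.46-fold rise without overlap (log2 fold change 0.54, SE 0.11, adjusted p = 0.00165). Pfkm, the muscle-type subunit, fell to 90.7, 94.8 and 94.4 CPM in TGF-beta1 cells, against 109.8, 103 and 109.7 CPM in control cells (log2 fold change -0.20, SE 0.04, adjusted p = 0.00213). For the liver-type subunit Pfkl the values were 78.5 ± 2.22 CPM in TGF-beta1 and 77.0 ± 1.69 CPM in control cells (log2 fold change 0.03, 95% interval -0.05 to 0.11). Thus 1 subunit gene rose, 1 fell and for 1 the interval lay close to 0. Pfkm overlaps Senp1 in the annotation, and reads of the overlap cannot be assigned without strand information. Senp1 itself had a log2 fold change of -0.06 and did not pass.

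Hk2, the inducible hexokinase, held 42.7, 39.6 and 43.0 CPM in TGF-beta1 cells, against 32.0, 38.4 and 33.0 CPM in control cells (log2 fold change 0.28, SE 0.08, adjusted p = 0.0193). The call for Hk2 was lost without control replicate 1 (adjusted p = 0.0887) or 3 (0.0726) and without TGF-beta1 replicate 1 (0.0608) or 3 (0.0638). Hk1, the housekeeping hexokinase, averaged 84.8 ± 4.87 CPM in TGF-beta1 and 84.6 ± 2.11 CPM in control cells (95% interval -0.10 to 0.11 on the log2 scale), and the isomerase Gpi 454 ± 3.99 CPM in TGF-beta1 and 441 ± 11.5 CPM in control cells (-0.02 to 0.11). Neither passed.

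The Pfkfb genes encode enzymes that make and remove the sugar bisphosphate that activates phosphofructokinase, and their transcripts went apart. Pfkfb4 held 16.2, 16.6 and 16.0 CPM in TGF-beta1 cells, against 11.3, 10.9 and 10.7 CPM in control cells, a rise of 1.48-fold (log2 fold change 0.57, SE 0.08, adjusted p = 0.000149), the largest log2 fold change upward among the tested members in this comparison. Pfkfb3, the form with the strongest kinase activity, fell to 45.6, 47.5 and 50.04 CPM in TGF-beta1 cells, against 57.4, 50.9 and 56.4 CPM in control cells (log2 fold change -0.20, SE 0.06, adjusted p = 0.0276). The call for Pfkfb3 was lost without control replicate 1 (adjusted p = 0.119) or 3 (0.0899) and without TGF-beta1 replicate 1 (0.113) or 2 (0.0791). Pfkfb2 averaged 7.35 ± 0.948 CPM in TGF-beta1 cells and 7.52 ± 0.330 CPM in control cells and overlapped.

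At the branch of pyruvate, none of 3 members passed. Ldha, the HIF-induced lactate dehydrogenase subunit, averaged 934 ± 23.7 CPM in TGF-beta1 cells and 970.5 ± 22.3 CPM in control cells (log2 fold change -0.05, 95% interval -0.13 to 0.02), Ldhb, its counterpart in oxidative tissue, 21.1 ± 0.867 CPM in TGF-beta1 cells and 21.7 ± 0.975 CPM in control cells (-0.18 to 0.11), and Pdk1, which inhibits pyruvate dehydrogenase, 22.2 ± 0.599 CPM in TGF-beta1 cells and 21.7 ± 0.561 CPM in control cells (-0.14 to 0.20). The interval of Ldha thus lay below a rise of the size seen in Eno2, Pgam1 or Pkm.

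HIF transcripts themselves did not pass in this comparison. Hif1a, the oxygen-regulated subunit, held 169.9, 183 and 179 CPM in TGF-beta1 cells, against 182, 178 and 176 CPM in control cells (log2 fold change -0.01, 95% interval -0.09 to 0.07). Arnt, its partner, held 67.2, 70.4 and 70.8 CPM in TGF-beta1 cells, against 78.7, 71.2 and 75.0 CPM in control cells, all lower than in control cells but short of the threshold (log2 fold change -0.11, adjusted p = 0.082). Without control replicate 2 Arnt passed (0.0391). Egln1, the main HIF prolyl hydroxylase, averaged 36.1 ± 0.827 CPM in TGF-beta1 cells and 36.7 ± 2.10 CPM in control cells and overlapped.

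The other HIF targets went different ways, with 1 of 11 tested members raised and 1 lowered. Vegfa, the vascular endothelial growth factor, held 109, 104 and 102 CPM in TGF-beta1 cells, against 80.8, 87.9 and 77.2 CPM in control cells, a 1.28-fold rise (log2 fold change 0.36, SE 0.05, adjusted p = 0.000176). Ddit4, a stress-induced inhibitor of mTORC1 signalling, fell to 82.4, 78.6 and 80.8 CPM in TGF-beta1 cells, against 101, 94.7 and 98.9 CPM in control cells (log2 fold change -0.28, SE 0.04, adjusted p = 0.00024). Both were without overlap. Car9 averaged 1066 ± 31.6 CPM in TGF-beta1 cells and 1085 ± 20.8 CPM in control cells (95% interval -0.10 to 0.05), and the mitophagy receptors Bnip3 (75.3 ± 6.96 CPM in TGF-beta1 cells and 72.5 ± 5.57 CPM in control cells) and Bnip3l (172 ± 3.20 CPM in TGF-beta1 cells and 177 ± 8.79 CPM in control cells) overlapped between the groups. The histone demethylase gene Kdm3a (66.7 ± 0.889 CPM in TGF-beta1 cells and 69.0 ± 0.788 CPM in control cells) and Mxi1, a repressor that opposes Myc (65.5 ± 2.30 CPM in TGF-beta1 cells and 65.2 ± 2.06 CPM in control cells), did not pass either.

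Higd1a, a small protein of the mitochondrial inner membrane, averaged 24.3 ± 2.95 CPM in TGF-beta1 cells and 19.7 ± 2.57 CPM in control cells (log2 fold change 0.30, adjusted p = 0.0671). It passed by DESeq2 (adjusted p = 0.0245), with no filter on low counts (0.0484), without control replicate 2 (0.0384) and without TGF-beta1 replicate 3 (0.021), so its call depends on these choices. Ankrd37 averaged 2.44 ± 0.159 CPM in TGF-beta1 cells and 3.22 ± 0.246 CPM in control cells (log2 fold change -0.40, adjusted p = 0.0889). Ndrg1, with 4, 10 and 4 counts in TGF-beta1 cells and 22, 12 and 13 in control cells, did not pass (log2 fold change -1.39, SE 0.51, adjusted p = 0.0683), though it did without TGF-beta1 replicate 2 (0.0431). Car12 held 17, 25 and 24 counts in TGF-beta1 cells and 6, 49 and 16 in control cells.

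**Figure D2:**
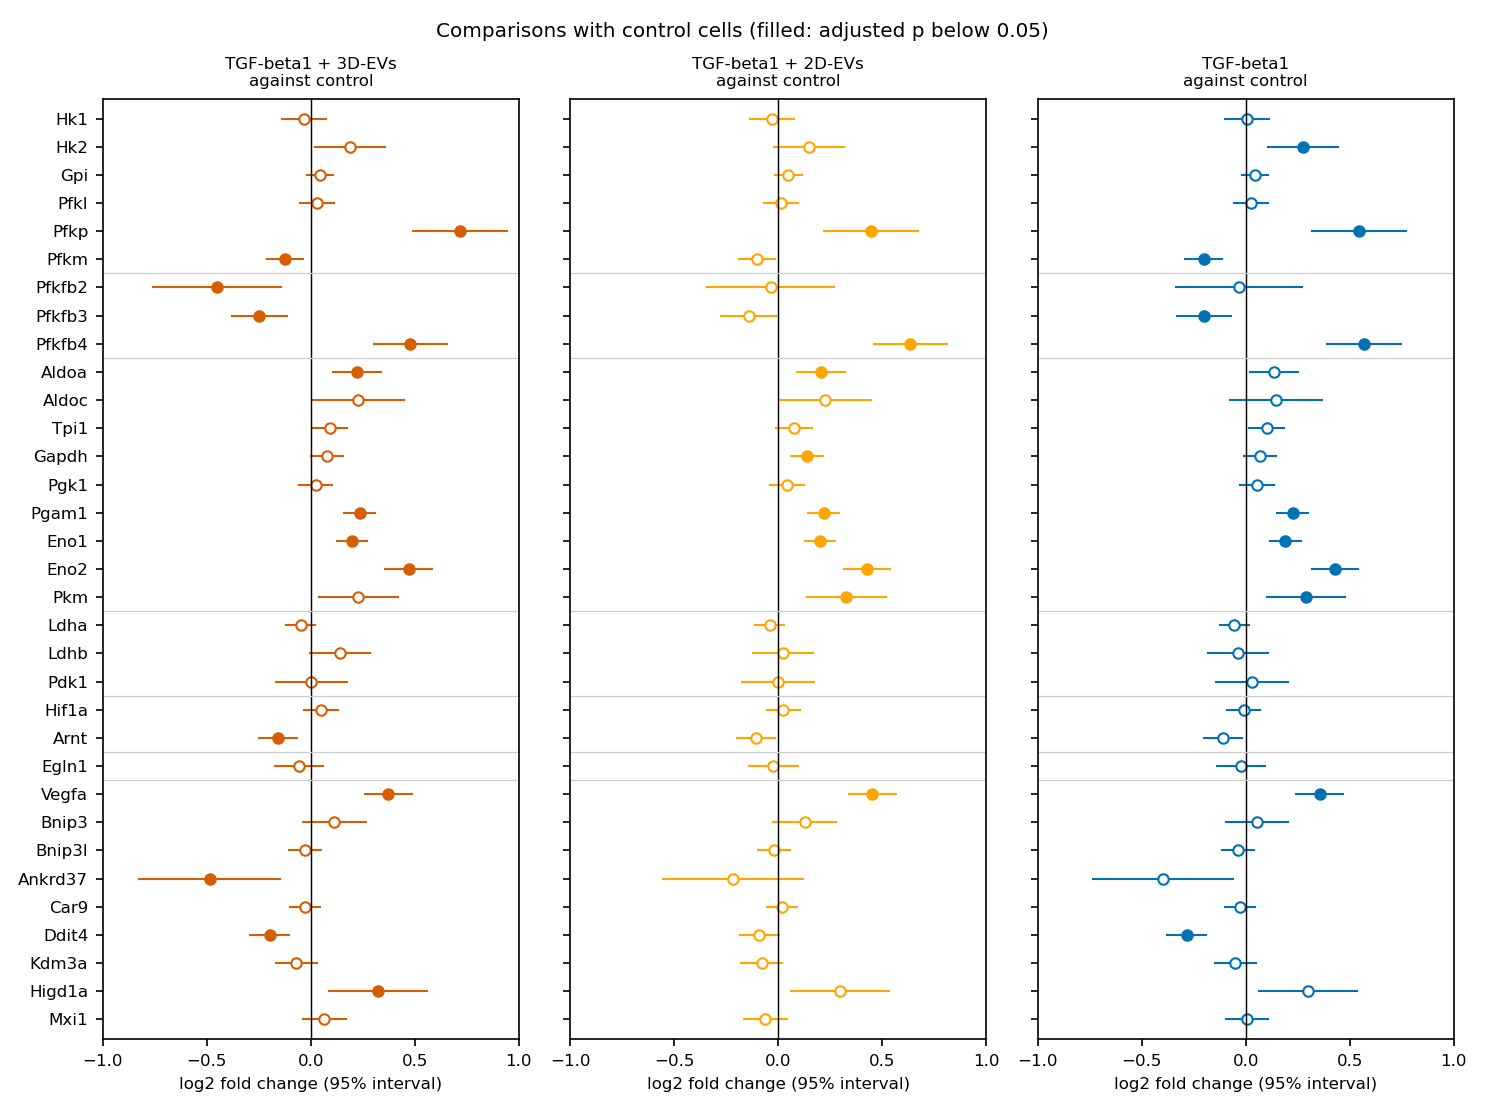
Log2 fold change with its 95% interval for 33 members in 3D-EV, 2D-EV and TGF-beta1 cells, each against control cells (filled points: adjusted p below 0.05; Ndrg1 and Car12 are left out). The 3 panels share the control libraries, and Pfkp, Pfkfb4, Pgam1, Eno1, Eno2 and Vegfa are filled on the right of 0 in each.

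3D-EV cells and 2D-EV cells against TGF-beta1 cells. These comparisons set cells given EVs beside cells given TGF-beta1 alone, and both share the TGF-beta1 libraries. No member passed in either by edgeR, where 0.0% of all tested genes (0) passed in 3D-EV cells and 0.0282% (4) in 2D-EV cells. At an unadjusted p below 0.05 there were 3 members in 3D-EV cells and 2 in 2D-EV cells, beside 1027 of all 14184 tested genes in 3D-EV cells and 1007 in 2D-EV cells. By DESeq2, 0 members and 7 genes passed in 3D-EV cells, and 1 member and 56 genes in 2D-EV cells. The median log2 fold change of the members was 0.007 in 3D-EV cells and 0.01 in 2D-EV cells. Libraries did not overlap for 5 of 35 members in 3D-EV cells, beside 13.6% of all tested genes, and for 3 of 35 in 2D-EV cells, beside 12.4%.

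The intervals limit how far the members could have moved. In 3D-EV against TGF-beta1 cells the 95% interval lay within 1.2-fold either way for 28 of 35 members, and in 2D-EV against TGF-beta1 cells for 27. In both, 33 lay within 2-fold, and Ndrg1 and Car12 did not. For Eno2 the interval of the log2 fold change was -0.07 to 0.15 with 3D-EVs and -0.11 to 0.11 with 2D-EVs, and for Pgam1 it was -0.06 to 0.09 and -0.08 to 0.07. For Vegfa it was -0.09 to 0.13 and -0.01 to 0.21. The differences from control cells that a return would undo were 0.43 for Eno2, 0.23 for Pgam1 and 0.36 for Vegfa, so for these genes a full return to the control level lay outside the intervals. This does not extend to every raised member. Hk2 libraries read 41.7, 41.1 and 34.9 CPM after 3D-EVs, and 37.1, 40.1 and 37.4 CPM after 2D-EVs. Both sets overlapped with the control and the TGF-beta1 libraries. With 2D-EVs the Hk2 interval reached beyond 1.2-fold. Against control cells Hk2 did not pass by edgeR in either EV group. In 3D-EV cells it passed as raised without control replicate 2 (adjusted p = 0.0242) and without 3D-EV replicate 3 (0.0261). Whether Hk2 returned was therefore not settled.

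Ddit4 came closest to a difference with 2D-EVs. Its libraries held 82.5, 84.6 and 89.6 CPM in 3D-EV cells, 95.5, 93.4 and 87.3 CPM in 2D-EV cells, 82.4, 78.6 and 80.8 CPM in TGF-beta1 cells and 101, 94.7 and 98.9 CPM in control cells. The 2D-EV libraries lay above all TGF-beta1 libraries and overlapped with those of control cells. The 3D-EV libraries also lay above all TGF-beta1 libraries, the closest by a thin margin (82.47 against 82.37 CPM), and below all control libraries. In 3D-EV against TGF-beta1 cells the log2 fold change was 0.09 (SE 0.04, adjusted p = 0.696 by edgeR). In 2D-EV against TGF-beta1 cells it was 0.19 (SE 0.04, unadjusted p = 0.000538, adjusted p = 0.206 by edgeR), and DESeq2 called it (adjusted p = 0.0314). Because the fall of Ddit4 under TGF-beta1 and these values rest on the same TGF-beta1 libraries, they are not independent of each other. Pfkm, lower in TGF-beta1 cells than in control cells, held 102, 97.0 and 96.5 CPM in 3D-EV cells, 103, 101 and 95.5 CPM in 2D-EV cells and 90.7, 94.8 and 94.4 CPM in TGF-beta1 cells. All EV libraries of Pfkm thus lay above all TGF-beta1 libraries, but it did not pass with 3D-EVs (adjusted p = 0.706) or 2D-EVs (0.606).

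With 3D-EVs the smallest unadjusted p-values belonged to Pfkfb2, Ndrg1 and Ldhb. Pfkfb2 held 6.90, 4.78 and 4.76 CPM in 3D-EV cells, against 6.93, 6.69 and 8.44 CPM in TGF-beta1 cells (log2 fold change -0.42, adjusted p = 0.597). Replicate 1 of 3D-EV cells lay among the TGF-beta1 libraries and the other two below them. Ndrg1 held 15, 19 and 17 counts in 3D-EV cells, against 4, 10 and 4 in TGF-beta1 cells (log2 fold change 1.47, SE 0.51, adjusted p = 0.597). Ldhb held 22.2, 25.9 and 23.7 CPM in 3D-EV cells, against 21.6, 21.7 and 20.1 CPM in TGF-beta1 cells (log2 fold change 0.18, adjusted p = 0.602), without overlap.

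**Figure D3:**
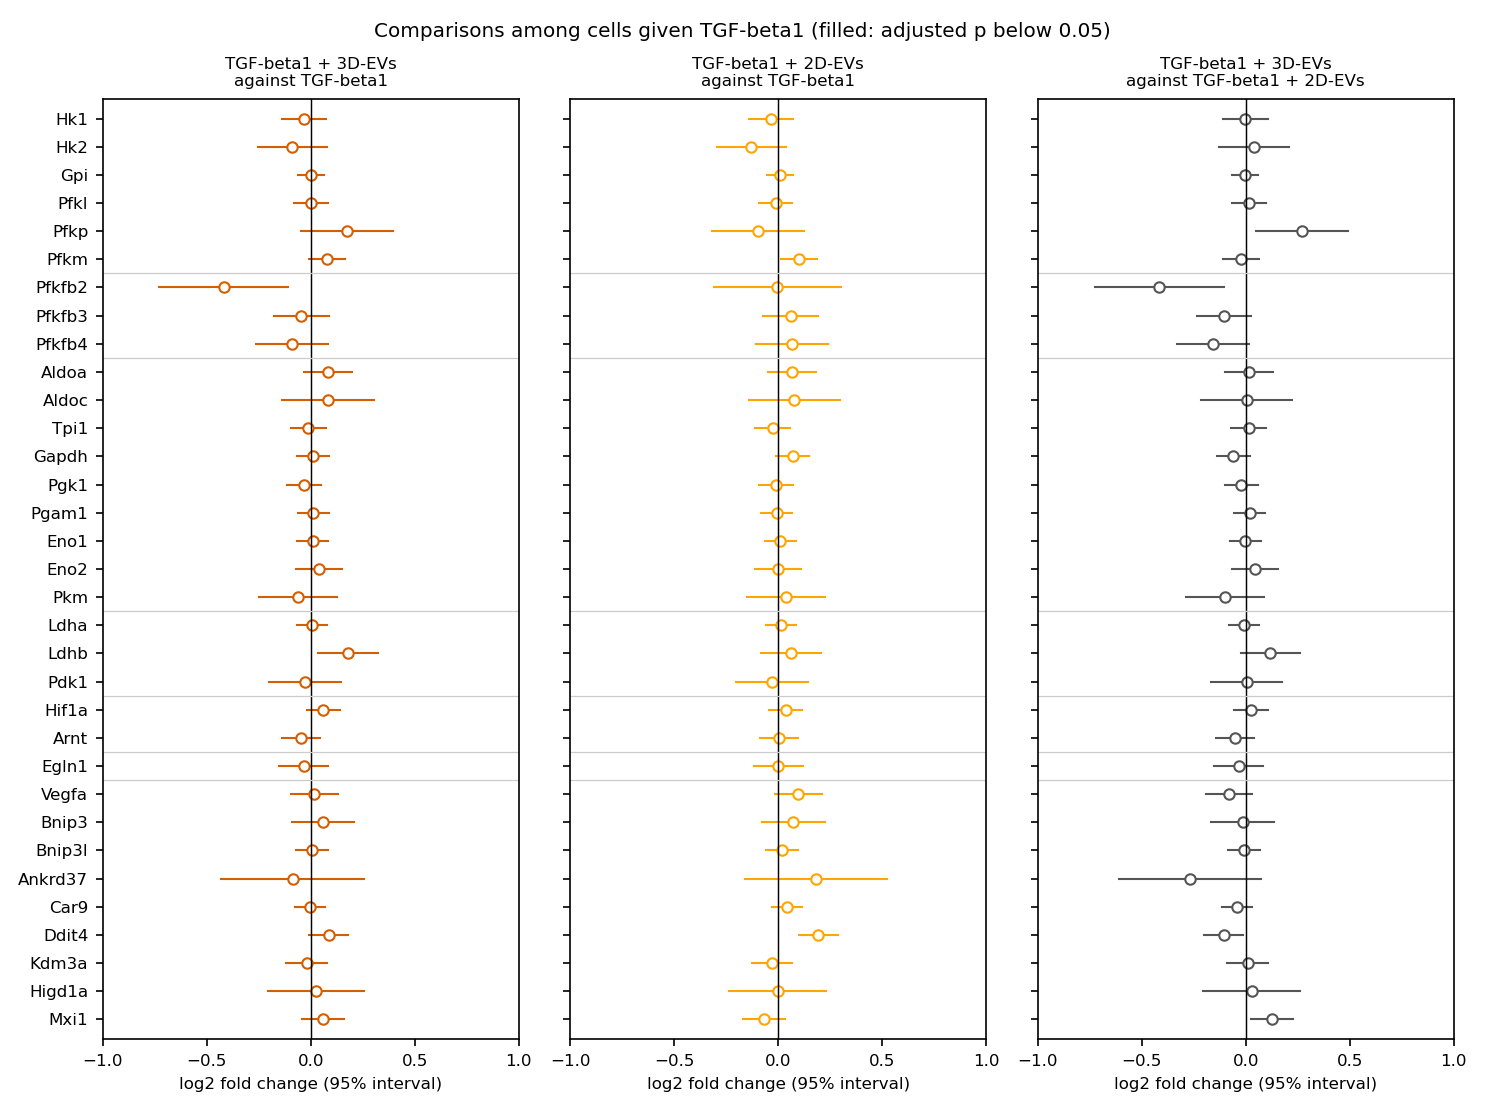
Log2 fold change with its 95% interval for 33 members in 3D-EV against TGF-beta1 cells, 2D-EV against TGF-beta1 cells and 3D-EV against 2D-EV cells (filled points would mark an adjusted p below 0.05; Ndrg1 and Car12 are left out). No point is filled, and the left and middle panels share the TGF-beta1 libraries.

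3D-EV cells against 2D-EV cells. This comparison asks whether the way the EVs were made changed the response. No member passed by edgeR or DESeq2, where 0.00705% of all tested genes (1, higher) passed by edgeR and 18 genes by DESeq2. At an unadjusted p below 0.05 edgeR counted 5 members and 978 genes. The interval lay within 1.2-fold either way for 28 of 35 members, the others being Ankrd37, Car12, Ndrg1, Pfkfb2, Pfkfb4, Pfkp and Pkm. Pfkp held 9.83, 10.5 and 9.76 CPM in 3D-EV cells, against 8.57, 8.72 and 7.63 CPM in 2D-EV cells (log2 fold change 0.27, 95% interval 0.05 to 0.49, adjusted p = 0.646). Its TGF-beta1 libraries, at 8.91, 8.91 and 8.88 CPM, lay between the EV groups. Mxi1 held 69.8, 68.6 and 66.3 CPM in 3D-EV cells, against 62.9, 66.0 and 58.5 CPM in 2D-EV cells (log2 fold change 0.13, 95% interval 0.03 to 0.23, adjusted p = 0.626). The groups did not overlap for either, nor for Arnt and Ndrg1, so for 4 of 35 members, beside 11.4% of all tested genes. Pfkfb2 averaged 5.48 ± 1.23 CPM in 3D-EV cells and 7.33 ± 0.599 CPM in 2D-EV cells (95% interval -0.72 to -0.11, adjusted p = 0.618). For Eno2 the log2 fold change was 0.04 (95% interval -0.07 to 0.16), for Pgam1 0.02 (-0.06 to 0.09), for Hif1a 0.03 (-0.06 to 0.11) and for Car9 -0.04 (-0.12 to 0.03).

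3D-EV cells and 2D-EV cells against control cells. Set against control cells, both EV groups showed raised enolases, Pgam1, Pfkp, Pfkfb4 and Vegfa. By edgeR, 8 of 35 members rose and 6 fell in 3D-EV cells, where 23.0% of all tested genes passed (12.2% upward, 10.8% downward). In 2D-EV cells 9 rose and 0 fell, where 18.6% passed (10.5% upward, 8.13% downward). These comparisons share the control libraries with each other and with the comparison of TGF-beta1 cells, so a gene called in each of them is not called on independent data. The median log2 fold change of the members was 0.05 in 3D-EV cells and 0.02 in 2D-EV cells. The count of 0 lowered members in 2D-EV cells was also 0 by DESeq2, while 3 were lower at an unadjusted p below 0.05 (Pfkfb3, Arnt and Pfkm). Of these, Arnt (adjusted p = 0.0491) and Pfkm (0.0489) fell without control replicate 2.

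Eno2 held 198, 197 and 206 CPM in 3D-EV cells, 203, 206 and 174 CPM in 2D-EV cells and 148, 143 and 143 CPM in control cells, with adjusted p = 1.45e-05 for 3D-EV and 4.61e-05 for 2D-EV cells. Vegfa held 104, 106 and 108 CPM in 3D-EV cells, 104, 113 and 119 CPM in 2D-EV cells and 80.8, 87.9 and 77.2 CPM in control cells (0.000124 and 2.9e-05). Pfkfb4 held 15.9, 13.6 and 16.3 CPM in 3D-EV cells, 15.4, 18.0 and 17.6 CPM in 2D-EV cells and 11.3, 10.9 and 10.7 CPM in control cells (0.000655 and 8.05e-05). In each of these genes every EV library lay above every control library. Pfkp had a log2 fold change of 0.72 (SE 0.11) in 3D-EV cells, the largest of any tested member above 1 CPM in the 6 comparisons, and of 0.45 (SE 0.11) in 2D-EV cells. Eno1 (log2 fold change 0.20 and 0.20) and Pgam1 (0.24 and 0.22) rose in 3D-EV and 2D-EV cells. Of the 9 members from aldolase to pyruvate kinase, all had a positive log2 fold change in both groups, and 4 rose in 3D-EV cells and 6 in 2D-EV cells. Over all 35 tested members 22 values were positive in 3D-EV cells and 20 in 2D-EV cells.

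Aldoa held 916, 932 and 906 CPM in 3D-EV cells, 844, 910.1 and 968 CPM in 2D-EV cells and 804, 795 and 765 CPM in control cells, and rose in both (adjusted p = 0.00808 and 0.015). The call in 2D-EV cells was lost without control replicate 3 (0.0644) or 2D-EV replicate 3 (0.0754). Gapdh rose in 2D-EV cells (1322, 1447 and 1432 CPM against 1300.0, 1299 and 1221 CPM, log2 fold change 0.14, adjusted p = 0.0155), and this call ended without control replicate 3 (0.0796) or 2D-EV replicate 2 (0.0799) or 3 (0.0586). Pkm rose in 2D-EV cells (1844, 2100.2 and 2344 CPM, adjusted p = 0.0172), and this call ended without control replicate 2 (0.0597) or 3 (0.0788) or 2D-EV replicate 2 (0.0517) or 3 (0.0912). In 3D-EV cells Pkm held 1921, 2204 and 1745 CPM and overlapped with control cells (0.0785), but passed with no filter on low counts (0.0349), without control replicate 1 (0.0458) and without 3D-EV replicate 3 (0.0303). For Gapdh and Pkm the difference between 3D-EV and 2D-EV cells itself did not pass (adjusted p = 0.81 and 0.87).

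The members that fell in 3D-EV cells were Ddit4, Pfkfb3, Arnt, Pfkfb2, Pfkm and Ankrd37. Ddit4 had a log2 fold change of -0.20 in 3D-EV cells (adjusted p = 0.00411) and -0.09 in 2D-EV cells (0.174), and Pfkfb3 had -0.25 (0.00884) and -0.14 (0.13). Both calls in 3D-EV cells held in every alternative run. Arnt held 68.6, 64.7 and 68.5 CPM in 3D-EV cells, against 78.7, 71.2 and 75.0 CPM in control cells (0.0159), and this call ended without control replicate 1 (0.0903) or 3D-EV replicate 2 (0.0819). Pfkm (log2 fold change -0.13, adjusted p = 0.0381) lost its call without control replicate 1 (0.135) or 3 (0.128), 3D-EV replicate 2 (0.123) or 3 (0.119), or TGF-beta1 replicate 2 (0.0518). With a replicate block in the fit the Pfkm call was also lost (adjusted p = 0.0572). Senp1, whose annotation overlaps that of Pfkm, fell in the same comparison (log2 fold change -0.18, adjusted p = 0.0151).

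Pfkfb2, at 6.90, 4.78 and 4.76 CPM in 3D-EV cells against 7.82, 7.59 and 7.17 CPM in control cells (log2 fold change -0.45, adjusted p = 0.0349), lost its call without control replicate 1 (0.0974), 2 (0.0788) or 3 (0.0545) and without 3D-EV replicate 2 (0.14) or 3 (0.13), and with only the groups compared in the fit (0.0585). Ankrd37, at 2.42, 2.45 and 2.02 CPM in 3D-EV cells against 3.47, 2.98 and 3.22 CPM in control cells (log2 fold change -0.49, adjusted p = 0.0384), lost it without any 1 of the 3 control libraries (0.122, 0.0511 and 0.0835) or of the 3D-EV libraries (0.0621, 0.0616 and 0.128), by DESeq2 (0.0596), with no filter on low counts (0.0581) and with only the groups compared in the fit (0.0684). A replicate block in the fit also ended the calls of Pfkfb2 (adjusted p = 0.0509) and Ankrd37 (0.0634). Genes whose annotation overlaps Pfkfb2 (C4bpb), Ankrd37 (Lrp2bp) and Higd1a (Ccdc13) held at most 10, 15 and 15 counts in any library. Higd1a rose in 3D-EV cells (22.6, 24.0 and 27.5 CPM against 20.2, 22.0 and 16.9 CPM, log2 fold change 0.32, adjusted p = 0.0461), and this call ended without control replicate 1 (0.0837) or 3 (0.197), 3D-EV replicate 2 (0.0814) or 3 (0.182), TGF-beta1 replicate 1 (0.0536), or 2D-EV replicate 1 (0.0546) or 3 (0.0518). In 2D-EV cells Higd1a passed without control replicate 2 (0.0467) and by DESeq2 (0.0314).

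**Figure D4:**
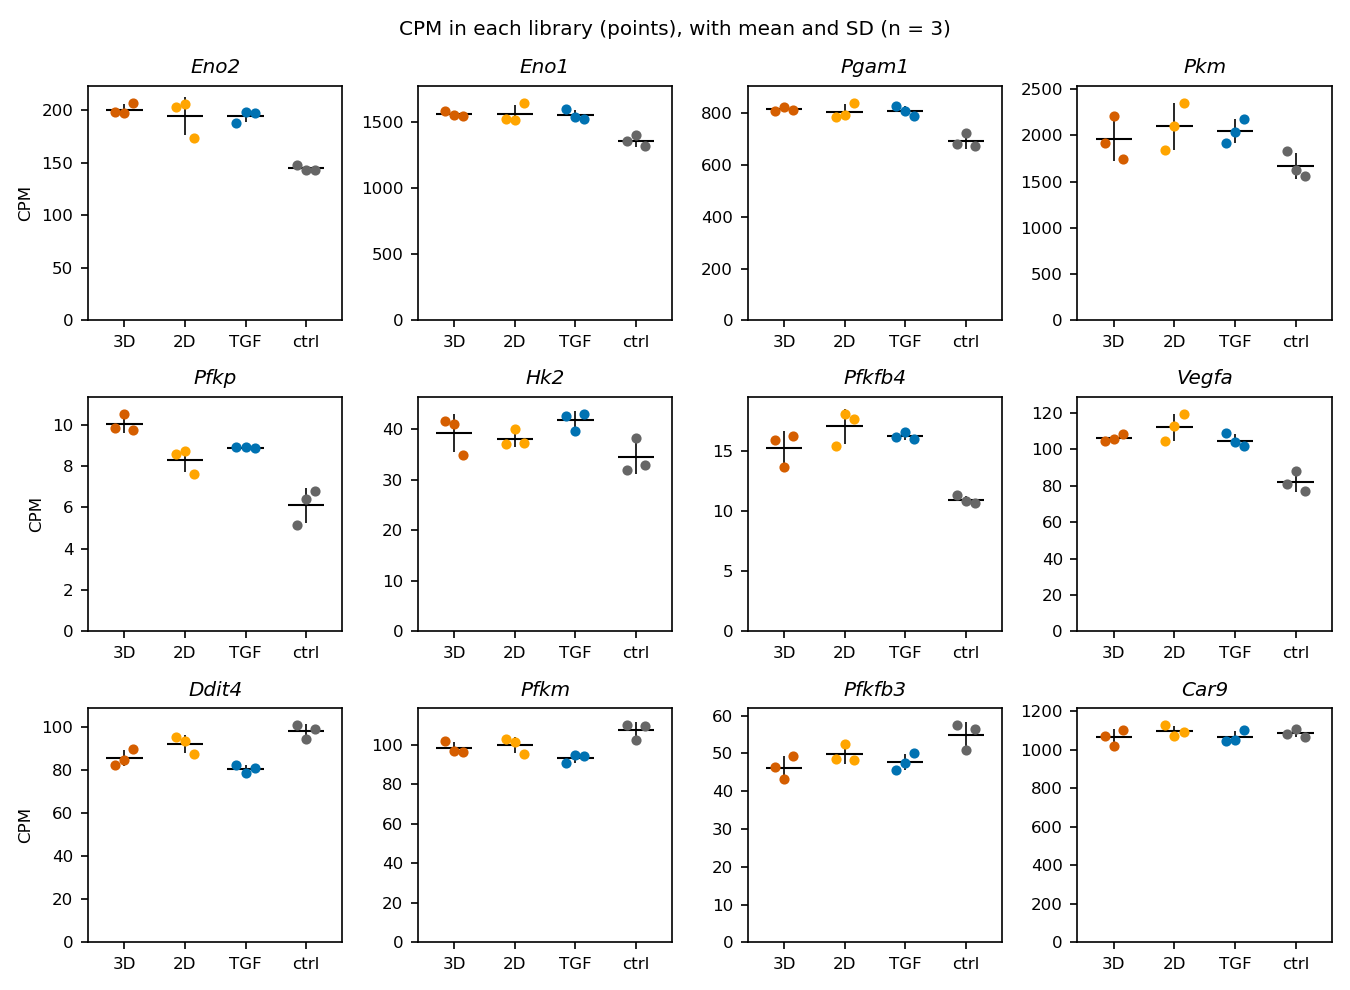
CPM of 12 members in each library (points), with the mean and SD of the 3 libraries of a group, for 3D-EV (3D), 2D-EV (2D), TGF-beta1 (TGF) and control cells (ctrl); each axis starts at 0. The enolases, Pgam1, Pfkp, Pfkfb4 and Vegfa lie above control cells in all 9 libraries given TGF-beta1, Pkm spreads widely in each group, and Car9 stands between 1019 and 1126 CPM throughout.

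Neighbouring genes of the pathway were counted from lists of other genes. Of 11 tested isoenzymes and side enzymes outside the set, 4 rose and 0 fell in TGF-beta1 against control cells (median log2 fold change 0.11), beside 22.0% of all tested genes (11.8% upward, 10.2% downward). Pgm2, which feeds sugar phosphates towards glycolysis (69.1 ± 2.23 CPM in TGF-beta1 cells and 49.5 ± 1.60 CPM in control cells, log2 fold change 0.48, adjusted p = 3.84e-06), and Hk3, a further hexokinase (15.6 ± 0.938 CPM in TGF-beta1 cells and 8.81 ± 1.33 CPM in control cells, log2 fold change 0.82, adjusted p = 0.000155), had the smallest p-values. Their levels with EVs were 70.5 ± 0.915 CPM in 3D-EV and 70.2 ± 4.35 CPM in 2D-EV cells for Pgm2, and 17.5 ± 1.80 CPM in 3D-EV and 17.6 ± 2.43 CPM in 2D-EV cells for Hk3. Of 11 glucose and lactate transporter genes, 2 rose and 3 fell (median -0.04). Slc16a1, the lactate and pyruvate carrier, fell (239 ± 6.38 CPM in TGF-beta1 cells and 371 ± 3.78 CPM in control cells, log2 fold change -0.64, adjusted p = 1.2e-08), as did its chaperone Bsg (2780.4 ± 17.2 CPM in TGF-beta1 cells and 3194 ± 104 CPM in control cells, log2 fold change -0.20, adjusted p = 0.000172). Slc2a6 (15.8 ± 0.347 CPM in TGF-beta1 cells and 12.3 ± 0.891 CPM in control cells, log2 fold change 0.37, adjusted p = 0.00651) and Slc2a1, the main glucose transporter of many cultured cells (139 ± 2.24 CPM in TGF-beta1 cells and 127 ± 5.07 CPM in control cells, log2 fold change 0.13, adjusted p = 0.0221), rose. The call for Slc2a1 was lost without control replicate 1 (0.107) or TGF-beta1 replicate 1 (0.0591) or 2 (0.076).

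Of 12 genes for the entry of pyruvate into mitochondria, 1 rose and 2 fell in TGF-beta1 against control cells (median 0.01). In that comparison 22.0% of all tested genes passed, 11.8% upward and 10.2% downward. Pdha1, the catalytic subunit of pyruvate dehydrogenase (399 ± 10.7 CPM in TGF-beta1 cells and 461 ± 2.25 CPM in control cells, log2 fold change -0.21, adjusted p = 0.000153), and Pdk4, which inhibits the same complex (5.87 ± 0.963 CPM in TGF-beta1 cells and 10.8 ± 1.86 CPM in control cells, log2 fold change -0.89, adjusted p = 0.000299), both fell. Dld, a subunit shared by such complexes, rose (180.2 ± 1.26 CPM in TGF-beta1 cells and 166 ± 1.14 CPM in control cells, log2 fold change 0.12, adjusted p = 0.0154), and lost its call without control replicate 1 (0.05). Among 22 tested HIF targets outside the set, 8 rose and 3 fell (median 0.04), beside the same shares of all tested genes. The matrix enzyme Loxl2 (301 ± 11.7 CPM in TGF-beta1 cells and 203 ± 4.60 CPM in control cells, log2 fold change 0.57, adjusted p = 3.83e-08) rose, while Zfp395 (15.2 ± 1.03 CPM in TGF-beta1 cells and 21.7 ± 0.652 CPM in control cells, log2 fold change -0.52, adjusted p = 0.000241) and Plod2, a lysyl hydroxylase of collagen (535 ± 16.8 CPM in TGF-beta1 cells and 592 ± 11.6 CPM in control cells, log2 fold change -0.15, adjusted p = 0.00199), fell. Of 13 tested HIF regulators 1 passed and fell, Hif3a, a further alpha subunit (0.815 ± 0.0498 CPM in TGF-beta1 cells and 1.89 ± 0.420 CPM in control cells, log2 fold change -1.21, adjusted p = 0.00778). Against control cells, 5 of the isoenzymes rose and 1 fell in 3D-EV cells, where 12.2% of all tested genes rose and 10.8% fell, against 3 and 0 in 2D-EV cells, where 10.5% rose and 8.13% fell. For the transporters the numbers were 2 and 3 in both, for pyruvate entry 2 and 3 in 3D-EV and 0 and 2 in 2D-EV cells, for the HIF targets 8 and 3 in 3D-EV and 7 and 3 in 2D-EV cells, and for the HIF regulators 0 and 1 in both. In all, 100 genes of 9 such lists were tested. By edgeR 0 of them passed in 3D-EV against TGF-beta1 cells (8 at an unadjusted p below 0.05, 0 by DESeq2), 0 in 2D-EV against TGF-beta1 cells (6, and 1 by DESeq2) and 0 in 3D-EV against 2D-EV cells (8, and 1 by DESeq2).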

How the data were processed

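RNA sequencing of NRK-52E cells gave 12 libraries in 4 groups of 3. The deposited values are raw counts per gene, whole numbers in 24660 rows, from the authors' table and 12 identical tables per library. The submitters' processing notes name fastp, HISAT2, StringTie and DESeq2 and the build mRatBN7.2. The sources used here do not give their roles, the annotation or the use of strand. From these counts, edgeR 4.0.16 (R 4.3.3) was run with TMM scaling, filterByExpr at a minimum count of 10 (14184 genes kept) and 1 quasi-likelihood fit of all libraries with 6 contrasts. The p-values were adjusted by Benjamini-Hochberg over all tested genes in each contrast, with a threshold of 0.05. Every adjusted p comes from this test unless DESeq2 (1.42.0) is named. The fit was tested on simulated counts of TGF-beta1 against control cells. It recovered 19% of 100 genes changed 1.2-fold and 82.8% of 99 genes changed 2-fold. It also called 4 of 13798 unchanged genes. A gene that did not pass may therefore still have changed by a small fold, and some changes of 2-fold were missed too. The simulation changed a far smaller share of its 13997 genes than the 22.0% that passed in the real comparison. Since that share sets the adjusted cutoff, the rates of recovery do not carry over to that comparison. Alternatives were DESeq2 and its size factors, no filter, a filter at a mean of 1 CPM, only the groups compared, a replicate block and leaving out each library. Totals of 32888125 to 39754319 counts set the depth, and TMM factors ran from 0.983 to 1.03, with all control libraries above all others. The members and lists were chosen with earlier results of these data known. Values per library are given for the members called in a comparison, and up to 2 raised and 2 lowered genes with the smallest p are named per further list; a gene that this rule chose is not reported here. Neighbours and promoters come from RefSeq on GRCr8, which was used for no coordinate of the counts.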

Additional observations from a re-analysis of the deposited data

Results flagged for a closer look

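Pfkp, the platelet-type phosphofructokinase subunit, had levels on opposite sides of TGF-beta1 cells with the 2 kinds of EVs, though neither difference from TGF-beta1 cells passed by edgeR (log2 fold change 0.17, adjusted p = 0.753, in 3D-EV cells and -0.10, adjusted p = 0.902, in 2D-EV cells). All 3D-EV libraries (9.83, 10.5 and 9.76 CPM) lay above all TGF-beta1 libraries (8.91, 8.91 and 8.88 CPM), and all 2D-EV libraries (8.57, 8.72 and 7.63 CPM) lay below them. The TGF-beta1 libraries had a coefficient of variation of 0.222%, where counting alone gives 5.83%. The log2 difference between 3D-EV and 2D-EV cells was 0.27. The test of that difference by edgeR gave an unadjusted p of 0.0195 and an adjusted p of 0.646, so it did not pass.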

How the results depend on the processing

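Among the named genes, those called in a comparison kept their sign in it under every alternative run; genes that did not pass were not followed in this way. Of all genes, 2D-EV against TGF-beta1 cells counted 4 in the main test, 56 by DESeq2, 14 with no filter and 7 with only the groups compared. 3D-EV against TGF-beta1 cells counted 0, and 7 by DESeq2. 3D-EV against 2D-EV cells counted 1, then 18 by DESeq2, 8 with no filter, 2 with only the groups compared and 2 with the replicate block. Among members, 1 rose by DESeq2 in 2D-EV against TGF-beta1 cells. Libraries left out in turn gave, in TGF-beta1 against control cells, 6 to 9 raised and 2 to 4 lowered members and 2419 to 3168 genes, in 3D-EV against control cells 7 to 10, 2 to 6 and 2408 to 3315, and in 2D-EV against control cells 6 to 9, 0 to 2 and 2006 to 2599. Without 1 library, 0 to 2 genes were called in 3D-EV against TGF-beta1 cells, 1 to 6 in 2D-EV against TGF-beta1 cells and 1 to 4 in 3D-EV against 2D-EV cells, with 0 members each time. The causes of these shifts were not tested. Whether replicate numbers pair the libraries was not settled. Over 18 same-numbered pairs the correlation of deviations from the group means ran from -0.159 to 0.151, with 5 above 0.1. The best partner of 5 of the 12 libraries carried their own number. Correlations of differently numbered pairs were not set beside these, so the check cannot decide. With the replicate block, 3 members in place of 6 were lowered in 3D-EV against control cells, without Pfkfb2 (adjusted p = 0.0509), Ankrd37 (0.0634) and Pfkm (0.0572), and the numbers of raised members were 8, 9 and 8 in 3D-EV, 2D-EV and TGF-beta1 cells against control cells. Counts of 4 to 49 leave Ndrg1 and Car12 with intervals wider than 2-fold in every comparison.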

Other observations

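Routes that branch off glycolysis were described by further lists. Of 8 tested genes of the pentose phosphate pathway, 3 rose and 0 fell in TGF-beta1 against control cells by edgeR (median log2 fold change 0.12), beside 22.0% of all tested genes (11.8% upward, 10.2% downward). Pgd, the enzyme that yields NADPH from phosphogluconate (344 ± 8.42 CPM in TGF-beta1 cells and 259 ± 3.12 CPM in control cells, log2 fold change 0.41, adjusted p = 2.76e-07), and Rpe, an epimerase of pentose phosphates (78.9 ± 3.77 CPM in TGF-beta1 cells and 70.1 ± 0.123 CPM in control cells, log2 fold change 0.17, adjusted p = 0.00755), had the smallest p-values. Pgd averaged 334 CPM in 3D-EV and 338 CPM in 2D-EV cells. Of 8 tested glycogen genes 1 passed, Ppp1r3c, which targets a phosphatase to glycogen and fell (7.78 ± 1.10 CPM in TGF-beta1 cells and 11.1 ± 0.681 CPM in control cells, log2 fold change -0.51, adjusted p = 0.00597). Among 4 tested genes of gluconeogenesis none passed by edgeR in this comparison. Against control cells, 3 pentose phosphate genes rose in 3D-EV cells and 4 in 2D-EV cells, 1 glycogen gene rose in 3D-EV cells, and 1 gene of gluconeogenesis rose in 2D-EV cells, with no fall in these lists, where 23.0% of all tested genes passed in 3D-EV cells and 18.6% in 2D-EV cells.

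Regulators linked to mTORC1 and MYC numbered 11 tested, of which 2 fell and 0 rose in TGF-beta1 against control cells. Beside them, 22.0% of all tested genes passed in that comparison, 11.8% upward and 10.2% downward. Txnip, a glucose-responsive inhibitor of glucose uptake, had the largest fold change downward among the 11 (23.2 ± 2.60 CPM in TGF-beta1 cells and 53.8 ± 9.45 CPM in control cells, log2 fold change -1.22, adjusted p = 0.000141). Its libraries held 25.2, 23.7 and 29.1 CPM in 3D-EV cells, 27.6, 32.8 and 17.7 CPM in 2D-EV cells, 23.3, 20.5 and 25.7 CPM in TGF-beta1 cells and 56.7, 43.3 and 61.5 CPM in control cells. All libraries given TGF-beta1 lay below all control libraries. Mxd4, an antagonist of MYC, fell as well (54.1 ± 1.88 CPM in TGF-beta1 cells and 63.4 ± 2.14 CPM in control cells, log2 fold change -0.23, adjusted p = 0.00694).

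Members differed in how far the libraries of a group spread. The coefficient of variation within groups averaged 9.60% for Pkm, where counting alone would give 0.383%, against 1.75% for Gpi, the lowest of the members above 1 CPM. Replicate 3 of 2D-EV cells was the highest Pkm library at 2344 CPM and replicate 3 of control cells the lowest at 1556 CPM.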
